A study of Mus musculus with 9 samples.

Results

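The nuclear-encoded genes of the mitochondrial respiratory chain and ATP synthase were followed in whole kidneys of adult mice that had lost the polycystic kidney disease gene Pkd2, alone or together with the cilia gene Ift88. Members were all rows of the gene table whose symbol starts with Ndufa, Ndufb, Ndufc, Ndufs, Ndufv, Uqcr, Cox4 to Cox8 or Atp5, plus Sdha to Sdhd and Cyc1. Of 93 matching rows 1 pseudogene was left out, so 92 genes of 22161 were members. They comprised 38 genes named for complex I, 7 Ndufaf genes, which encode complex I assembly factors and share the Ndufa stem, 4 of complex II, 9 of complex III, 17 of complex IV and 17 named for complex V. Of these, 91 reached a mean of at least 10 normalized counts over the 9 libraries and were tested, and Cox7b2, a testis isoform of complex IV, stayed between 0 and 2.25.

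The 9 libraries were made from poly(A) RNA of kidneys of C57BL/6 mice, 1 mouse each, at postnatal day 70. Wild type (WT), Pkd2 knockout (KO) and Pkd2+Ift88 double knockout (DKO) groups held 3 mice each. In the mutants, per the labels, floxed Pkd2, or floxed Pkd2 and Ift88, was combined with Pax8-rtTA and with TetO-cre, so that doxycycline starts the deletion in cells in which the Pax8 promoter is active, mainly kidney tubule cells. All mice, wild types included, were given oral doxycycline (2 mg/ml) during 2 weeks that began at postnatal day 28. Cells without this driver keep both genes, and the RNA came from all cells of the kidney. Wild types 1 and 2 share a mouse-name prefix that wild type 3 lacks, and knockouts 1 and 2 share one that knockout 3 lacks. Double knockouts 1 and 2 share a prefix too, which the name of double knockout 3 has with a hyphen added. The labels do not say what these differences in name mean.

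Complex I (NADH dehydrogenase) and complex II (succinate dehydrogenase) pass electrons to ubiquinone, complex III passes them to cytochrome c, and complex IV (cytochrome c oxidase) passes them to oxygen. Complexes I, III and IV pump protons, and complex V (ATP synthase) uses the proton gradient to make ATP. Most subunits are encoded in the nucleus and a few in mitochondrial DNA. Kidney tubules, above all the proximal tubule and the thick ascending limb, are rich in mitochondria because sodium reabsorption consumes much ATP.

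The 3 promoters shown belong to the member called between groups (Ndufa5) and to the uncalled members with the smallest adjusted p against wild type in knockout (Cox6b1) and in double knockout (Ndufb8). NRF1, GABPA and the estrogen-related receptors are transcription factors known for binding promoters of respiratory chain genes, and YY1 binds many promoters of such genes too. The 250 bases before each start site are given from RefSeq (GRCm38.p6), 5′ to 3′ on the gene's strand, with searched motifs on either strand in capitals. The windows are chr6:24527691-24527940, minus strand, for Ndufa5, chr7:30626115-30626364, minus strand, for Cox6b1, and chr19:44555443-44555692, minus strand, for Ndufb8. The window shown for Ndufa5 is the most upstream of 2. In Ndufa5 the capitals mark an NRF1 motif, in Cox6b1 a GABPA motif, and Ndufb8 held none of the 4 motifs in this window.
Ndufa5: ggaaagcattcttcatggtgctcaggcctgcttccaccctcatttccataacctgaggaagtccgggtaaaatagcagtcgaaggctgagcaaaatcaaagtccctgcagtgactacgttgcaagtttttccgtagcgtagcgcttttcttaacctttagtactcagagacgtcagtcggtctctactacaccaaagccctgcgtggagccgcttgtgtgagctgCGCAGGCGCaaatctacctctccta
Cox6b1: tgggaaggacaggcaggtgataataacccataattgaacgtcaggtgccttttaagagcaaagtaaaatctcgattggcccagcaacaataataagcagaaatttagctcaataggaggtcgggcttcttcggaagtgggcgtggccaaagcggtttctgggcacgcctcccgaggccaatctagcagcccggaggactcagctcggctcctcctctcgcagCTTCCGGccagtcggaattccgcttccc
Ndufb8: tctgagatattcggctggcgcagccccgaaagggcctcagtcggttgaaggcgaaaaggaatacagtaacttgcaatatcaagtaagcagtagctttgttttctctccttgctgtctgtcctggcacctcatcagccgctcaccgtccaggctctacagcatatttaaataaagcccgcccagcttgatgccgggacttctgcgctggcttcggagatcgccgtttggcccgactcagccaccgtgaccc

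Over all members, 76 of 92 had a RefSeq window of 300 bases, from 250 before to 50 after the start. The NRF1 motif GCGCNTGCG, searched on both strands, was found for 26 of these 76 genes (34.2%), against 7.12% of 27025 genes and 13.6% of the genes tested here. The GABPA motif CCGGAAG was found for 22.4% of these members, against 9.93% of all and 18.0% of tested genes. The estrogen-related receptor motif AAGGTCA was found for 10.5% of these members, against 5.38% of all and 4.16% of tested genes. The YY1 motif AAGATGGCG was found for 10.5% of these members, against 1.64% of all and 3.13% of tested genes. These are matches of letters and not measured binding.

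Normalized totals of the libraries lay between 40454151 and 42874467. Pkd2 was at 13768 to 14505 normalized counts in wild type, 4723 to 5549 in knockout and 3777 to 5181 in double knockout, and Ift88 at 1056 to 1132, 1086 to 1214 and 691 to 831 in the same order, so each targeted gene was lower in the groups whose labels name its deletion. Wild type 3 stood apart for the genes described here: of 91 tested members 75 had their highest value of all 9 libraries in it, against 18.1% of all genes tested. Results are therefore given with and without it.

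In Pkd2 knockout kidneys most respiratory chain genes lay slightly below wild type, and 1 passed the test. The median log2 difference of the 91 members was -0.21, against 0.00 for all 15740 genes tested, and 87 members had a negative difference. Limma with Benjamini-Hochberg adjustment over all genes called 1 member (Ndufa5, lower) and no member higher, a share of 1.10% against 2.40% of all genes tested. At an unadjusted p below 0.05 the same fit had 39 members lower and 0 higher, where 8.67% of all genes were lower. In 54 members (59.3%) every knockout library lay below every wild-type library, against 12.8% of all genes.

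Double knockout kidneys showed differences from wild type of similar size. The median of the members was -0.22, against 0.00 for all genes, and 83 of 91 differences were negative. Limma called 0 members after adjustment, where 0.229% of all genes were called. At an unadjusted p below 0.05, 37 members were lower and 0 higher, with 5.81% of all genes lower. In 45 members (49.5%) the groups did not overlap and the double knockouts were lower, against 9.24% of all genes. Both comparisons use the same wild-type libraries, so they are not independent of each other.

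Between double knockout and knockout the members showed no common direction. The median difference was -0.01, against 0.00 for all genes, with 49 of 91 negative. Limma called 0 members, where 0.394% of all genes were called, and the smallest adjusted p of a member was 0.371. At an unadjusted p below 0.05, 3 were lower (Ndufc2, Cox6a1 and Ndufb8) and 1 was higher (Atp5l), against 6.49% of all genes lower. In 2 members every double knockout library lay below every knockout library, against 7.78% of all genes. The reverse, every double knockout above every knockout, held for Ndufa5, Ndufaf6, Sdha, Atp5l and Cox6a2 among the members named by rule. No share over all genes is given for that direction.

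**Figure D1:**
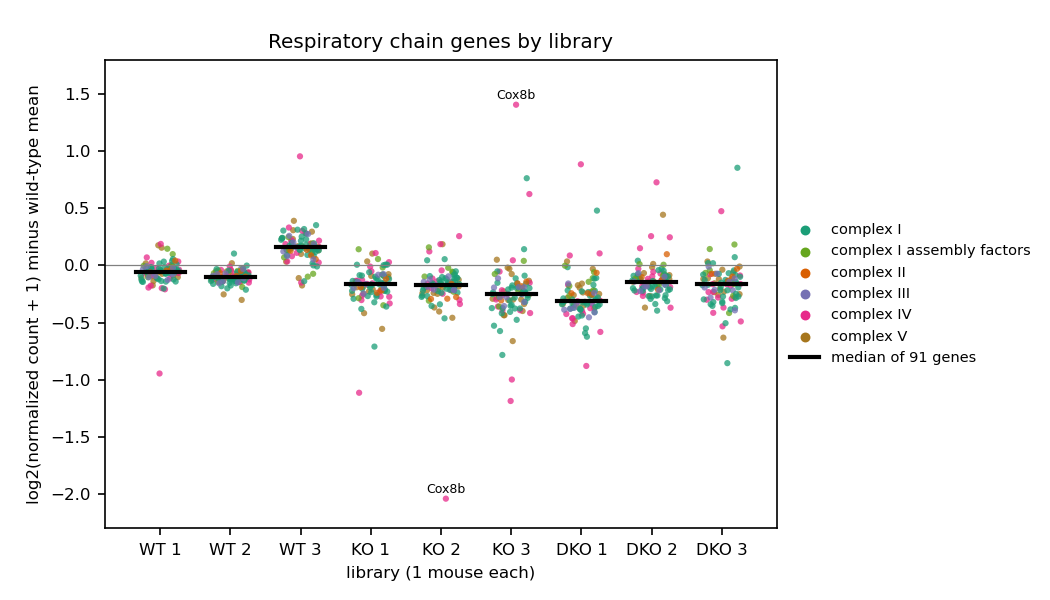
Each point is 1 of 91 respiratory chain genes in 1 library, as log2(normalized count + 1) minus the mean of the 3 wild types (y axis), coloured by complex, with the library on the x axis and black bars at medians. Wild type 3 has a median of 0.16, the other wild types -0.06 and -0.10, the knockouts -0.17 to -0.25 and the double knockouts -0.14 to -0.31.

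Summed over all 92 genes, the members took 1.83, 1.79 and 2.05% of the normalized counts in wild types 1 to 3. In knockout kidneys they took 1.71, 1.70 and 1.68%. In double knockout kidneys they took 1.61, 1.70 and 1.69%. All 6 mutant libraries thus lay below all 3 wild types. The step from 1.71 to 1.79% between the groups was smaller than the range within wild type.

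Without wild type 3 the shift was smaller and kept its direction in most members. The median difference from wild type became -0.14 in knockout, with 82 of 91 members negative, and -0.12 in double knockout, with 81 negative. Limma then called 0 members in either comparison, where 1.85% of all genes were called in knockout and 0.368% in double knockout. There were 10 members lower in knockout at an unadjusted p below 0.05 (11.0%), against 8.52% of all genes, and 15 lower in double knockout (16.5%), against 6.67% of all genes. The knockout share was thus near that of all genes. Against wild types 1 and 2 alone, all 3 knockouts lay lower in 55 members (60.4%), where 19.6% of all genes did so. All 3 double knockouts lay lower in 47 members (51.6%), where 17.8% of all genes did so.

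**Figure D2:**
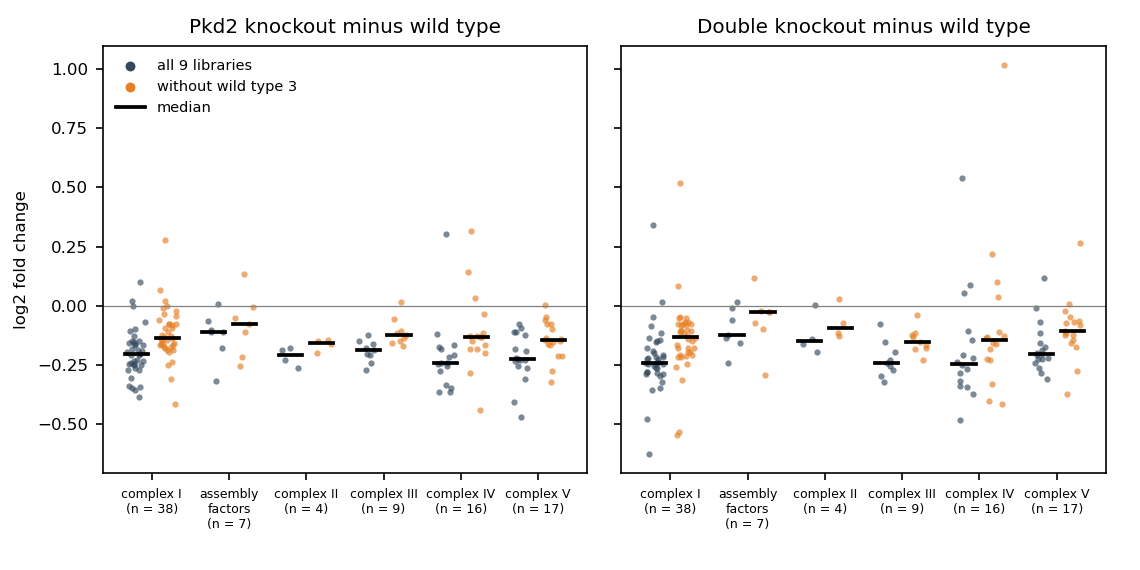
Log2 fold change of each tested member (points) by complex (x axis, n tested below), for knockout (left) and double knockout (right) against wild type, with all libraries (dark) and without wild type 3 (orange); black bars are medians. With all libraries the complex medians lie between -0.11 and -0.24, and without wild type 3 between -0.03 and -0.16.

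Complex I held the called gene. Its 38 tested members had a median difference of -0.20 in knockout and -0.24 in double knockout against wild type, which became -0.14 and -0.13 without wild type 3. At an unadjusted p below 0.05, 16 were lower in knockout and 20 in double knockout, against 8.67% and 5.81% of all genes. Wild type 3 was the highest library in 33 of the 38. Ndufa5, a subunit of the matrix arm, was at 2913, 2694 and 3274 normalized counts in wild type, 2266, 2308 and 2206 in knockout, and 2402, 2560 and 2309 in double knockout. All mutant values lay below all wild-type values. The knockout mean was 76.3% of wild type, a log2 difference of -0.38 ± 0.08 (SE) with a limma adjusted p of 0.0448, and the double knockout difference was -0.29 (adjusted p = 0.232). The call was close to the threshold: Ndufa5 was called in 9 of 27 alternative analyses, its difference ranged from -0.45 to -0.27 over them, and its adjusted p without wild type 3 was 0.075. Leaving out any 1 of 8 libraries, controls and double knockouts among them, ended the call, and without double knockout 3 it held.

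Ndufb8, an accessory subunit of the membrane arm that is often used as a marker of assembled complex I, showed a step from group to group. It was chosen after its values were seen. Its values were 6460, 6442 and 7029 in wild type, 5864, 5773 and 5663 in knockout, and 5001, 5441 and 5131 in double knockout, with no overlap between any of the 3 groups. The double knockout mean was 78.1% of wild type (log2 -0.36 ± 0.06, limma adjusted p = 0.0833), and the knockout mean was 86.8% (adjusted p = 0.130). Between double knockout and knockout the limma adjusted p was 0.413. Ndufc2, another membrane arm subunit chosen in the same way, was at 4752, 4597 and 5646 in wild type, 4600, 4322 and 3578 in knockout and 3230, 3783 and 2750 in double knockout. Its double knockout mean was 65.1% of wild type, with a limma adjusted p of 0.136, and wild type and knockout overlapped.

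Not every complex I gene was lower. Ndufab1, the mitochondrial acyl carrier protein, averaged 99.8% of wild type in knockout and 101% in double knockout. Ndufv3, a small subunit of the NADH-binding module, averaged 102 and 96.8%. Both were chosen after their values were seen. Ndufa4, which carries a complex I name and is now counted as a subunit of complex IV, had the most counts of the class, 15231 to 18616 in wild type, 14188 to 15843 in knockout and 12981 to 15131 in double knockout, with limma adjusted p of 0.406 and 0.324 against wild type. Its paralog Ndufa4l2, a target of hypoxia signalling, was at 98.0 to 116.1 in wild type, 65.5 to 112 in knockout and 71.2 to 85.2 in double knockout, again uncalled.

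Ndufs5, a subunit of the membrane arm, was the complex I gene with the highest difference in knockout (log2 0.10 ± 0.35), and its values did not follow genotype. It was at 297, 283 and 419 in wild type, 255, 305 and 558 in knockout, and 458, 264 and 594 in double knockout. Wild type 3, knockout 3 and double knockouts 1 and 3 were above the other 5 libraries. Among members, Atp5sl, despite its name a complex I assembly factor, was also higher in these 4 libraries, and Atp5j2 and Cox7c were lower in them. Of 15740 genes tested, 328 were higher and 261 lower in these 4 than in each of the other 5. Of 91 members, 2 were higher, Ndufs5 included, and 2 lower, shares near those of all genes. The split was taken from Ndufs5 after its values were seen, so Ndufs5 is no independent case of it.

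The 7 Ndufaf genes, whose proteins help to assemble complex I and are not part of it, had medians nearer to 0, -0.11 in knockout and -0.12 in double knockout, and -0.08 and -0.03 without wild type 3. Ndufaf6 had the lowest difference in knockout. It was at 811, 834 and 938 in wild type, 704, 693 and 670 in knockout, and 714, 803 and 835 in double knockout. Only the knockouts were apart from wild type (log2 -0.32 ± 0.09, limma adjusted p = 0.110). Ndufaf4, with the highest difference and the most counts, averaged 101% of wild type in knockout and 99.1% in double knockout.

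All 4 subunits of complex II, which also works in the tricarboxylic acid cycle, had every knockout value below every wild-type value. Of all genes tested, 12.8% did so. None of the 4 passed the adjusted test. Sdhc, a membrane anchor, was at 14056, 13975 and 16029 in wild type, 12836, 11955 and 11857 in knockout, and 12381, 13657 and 13934 in double knockout. Its knockout mean was 83.2% of wild type (log2 -0.26 ± 0.08, limma adjusted p = 0.124). Sdhb, the iron-sulfur subunit, averaged 85.2% and Sdhd, the other anchor, 87.7% of wild type in knockout (adjusted p = 0.159 and 0.185). Sdha, the flavoprotein that oxidizes succinate, was at 35966, 32641 and 36284 in wild type and 32192, 28830 and 31662 in knockout. In double knockout it was at 33406, 37394 and 34225, within the wild-type range except for 1 library above it, and its mean was 100.1% of wild type. The other 3 double knockout means were 87.1 to 90.7% of wild type. The difference of Sdha between double knockout and knockout was 0.18 ± 0.08 on the log2 scale, with a limma adjusted p of 0.472.

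**Figure D3:**
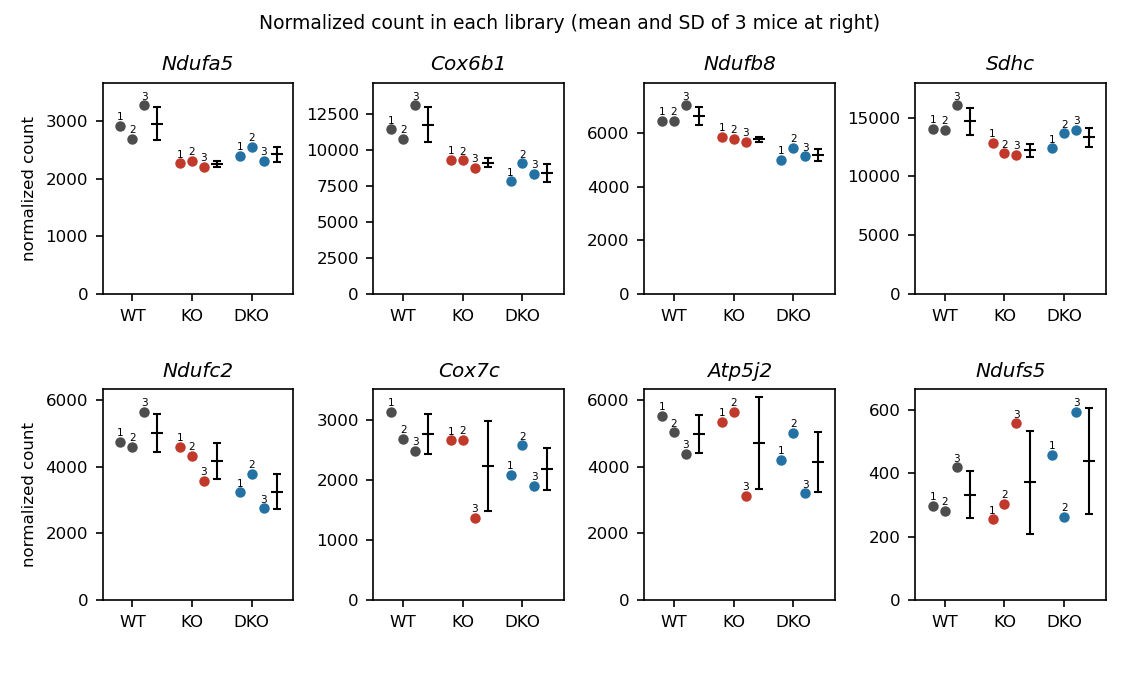
Normalized counts (y axis, from 0) of 8 members in each of 3 wild-type (WT), 3 knockout (KO) and 3 double knockout (DKO) mice, numbered by replicate, with mean and SD at the right of each group. The groups are apart in Ndufb8, whereas Ndufs5 is at 419 to 594 in wild type 3, knockout 3 and double knockouts 1 and 3 and at 255 to 305 in the other 5.

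Complex III showed the shift in all 9 members, and wild type 3 was the highest library in all 9. In 7 of them the knockouts lay wholly below wild type, against 12.8% of all genes. The medians of the complex were -0.19 in knockout and -0.24 in double knockout (-0.12 and -0.15 without wild type 3). None was called. Uqcrh, the hinge protein, had the lowest difference in knockout: 7314, 6949 and 8812 in wild type, 6449, 6607 and 5979 in knockout, and 5916, 6735 and 6598 in double knockout (knockout log2 -0.27 ± 0.10, limma adjusted p = 0.186). Uqcrq, a small subunit, had the highest, -0.12, and its value rested on wild type 3: at 8401 it was well above the 6355 and 6260 of the other wild types, and without it the difference was 0.02. Uqcrc2, a core subunit with the most counts of the complex, was at 17205 to 19188 in wild type, 15933 to 16763 in knockout and 16248 to 18001 in double knockout.

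Among 16 tested complex IV members the medians were -0.24 in both knockout and double knockout, and -0.13 and -0.15 without wild type 3. Cox6b1, a subunit that faces the intermembrane space, had the second smallest adjusted p of all members in each mutant. It was at 11457, 10795 and 13131 in wild type, 9333, 9300 and 8804 in knockout, and 7850, 9095 and 8366 in double knockout, so both mutant groups lay wholly below wild type. The knockout mean was 77.5% of wild type (log2 -0.36 ± 0.09, limma adjusted p = 0.0677) and the double knockout mean 71.5% (log2 -0.48 ± 0.09, adjusted p = 0.0909). Without wild type 3 the differences were -0.28 and -0.40. Cox4i1, the core nuclear subunit with the most counts of the complex, was at 17870, 17073 and 19596 in wild type, 16225, 16488 and 15265 in knockout and 14604, 16729 and 14941 in double knockout, with limma adjusted p of 0.268 and 0.299. Cox7c had the lowest difference in knockout, -0.36 ± 0.24, which came from 1380 in knockout 3 beside 2665 and 2678 in the others.

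Several complex IV subunits exist as tissue isoforms, and per kilobase of transcript the ubiquitous form was far above its partner in every library. Cox6a1 was at 17316 to 25261 normalized counts per kilobase over the 9 libraries and its muscle form Cox6a2 at 37.3 to 170. Cox4i1 was at 19343 to 25955 per kilobase and Cox4i2, known for lung, at 9.52 to 28.3. Cox6b1 was at 16153 to 27018 per kilobase and its testis form Cox6b2 at 282 to 464. Cox6b2 had the highest difference of complex IV in knockout (log2 0.30 ± 0.17, limma adjusted p = 0.392), with 202 normalized counts in knockout 3 and 123 to 156 in the other 8 libraries.

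The isoforms of heart, muscle and brown fat were uneven among mice. Cox8b was at 49.2, 54.1 and 69.7 in wild type, 61.6, 13.1 and 153 in knockout, and 30.5, 95.1 and 50.8 in double knockout. Cox7a1 was highest in wild type 3 (477) and then in knockout 3 (399), and lay between 288 and 372 in the other 7. Cox6a2 went the other way, with its lowest value of all 9 libraries in knockout 3 (25.3) and 30.1 to 115 in the other 8. Of 10 brown and white adipose markers, 9 were highest in knockout 3: Ucp1, the uncoupling protein of brown fat, was at 968 there, at 40 in knockout 2 and at 68.2 to 445 in the others. The median of the 9 tested adipose markers was 2.04 above the wild-type mean on the log2 scale in knockout 3, between -0.82 and 0.69 in the other 8 libraries. Summed, however, the 10 markers took 0.187% of the normalized counts in knockout 3 and 0.246 to 0.505% in the others, since Pck1, a gluconeogenic enzyme that kidney tubules also express, makes up most of the sum and was lowest in knockout 3 (69836, against 97790 to 213781). The 6 tested erythroid markers stood out in knockout 3 as well, with a median of 3.54 above the wild-type mean on the log2 scale. Their median was 0.79 in wild type 3 and between -2.62 and 0.68 in the others. The part of adipose tissue or blood in these isoform values was not tested. Cox7a2, Cox7b and Cox7a2l, the last a factor of supercomplex assembly, had log2 differences of -0.28, -0.24 and -0.22 in knockout, all uncalled.

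All 17 members named for complex V had negative differences in knockout, and 16 in double knockout. In 12 the knockouts lay wholly below wild type, against 12.8% of all genes. In 7 the double knockouts did so, against 9.24% of all genes. Wild type 3 was the highest library in 13 of the 17. The medians were -0.23 and -0.20, and -0.14 and -0.11 without wild type 3. None was called. Atp5b, the catalytic beta subunit, had the most counts of any member: 114798, 114438 and 131489 in wild type, 113806, 110013 and 109344 in knockout, and 100927, 113143 and 119206 in double knockout. Its difference was -0.11 in both mutants and -0.05 without wild type 3. All knockouts lay below all wild types, whereas double knockouts and wild types overlapped. Atp5g2, which encodes a c-ring subunit, had the highest knockout difference of the class, -0.08 ± 0.10. The lowest, -0.47 ± 0.23, was Atp5l, with only 35.8 to 72.5 counts and 9 other genes in the annotation of at least 95% identity over 200 bases, so its reads are uncertain.

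Near-identical copies of this kind were found for 27 tested members. The 64 without a copy had medians of -0.19 in knockout and -0.22 in double knockout, close to -0.23 and -0.21 in the 27 with a copy.

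Most members have short transcripts, with a median length of 755 bases against 2578 for all genes tested, and wild type 3 differed from wild types 1 and 2 along transcript length. Genes outside the set showed a median log2 difference of wild type 3 from wild types 1 and 2 of 0.18 at 601 to 800 bases, 0.05 at 1501 to 2500 bases and -0.09 above 4000 bases. Members showed 0.26 and 0.15 in the first 2 of these bins. The shortest genes, up to 600 bases, did not follow this order: the 505 other genes there were at -0.02, whereas the 28 members, more than in any other bin, were at 0.31. Groups of other short housekeeping genes, chosen after the values were seen, were higher in wild type 3 too: by a median of 0.34 for 81 cytosolic ribosomal protein genes, 0.24 for 75 mitochondrial ribosomal protein genes and 0.17 for 39 proteasome genes, beside 0.24 for members. When knockouts 1 and 2 were set against wild types 1 and 2, these 3 groups were at -0.02, -0.02 and -0.01, and the members at -0.10. Against the mean of all 3 wild types, the knockout medians of these groups were -0.18 to -0.07, -0.10 to -0.09 and -0.13 to -0.05, beside -0.25 to -0.17 for members. In double knockouts they were -0.14 to -0.11, -0.16 to -0.01 and -0.17 to 0.04, beside -0.31 to -0.14 for members.

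A fit in which each library was corrected for a smooth trend with transcript length, added after the data were seen, gave member medians of -0.14 in knockout and -0.15 in double knockout. It called 0 members, where 2.41% of all genes were called in knockout and 0.180% in double knockout. At an unadjusted p below 0.05, 15 members (16.5%) were lower in knockout, against 8.33% of all genes, and 23 (25.3%) in double knockout, against 5.59%. With this correction and without wild type 3 the medians were -0.11 and -0.10, with 79 and 81 of 91 members negative. Again 0 members were called, where 1.98% of all genes were called in knockout and 0.431% in double knockout. Lower at an unadjusted p below 0.05 were 4 members (4.40%) in knockout, against 8.36% of all genes, and 7 (7.69%) in double knockout, against 6.86%, a share below that of all genes in knockout and near it in double knockout. Mouse-name prefix and genotype cannot be told apart, since no prefix occurs in more than 1 group.

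**Figure D4:**
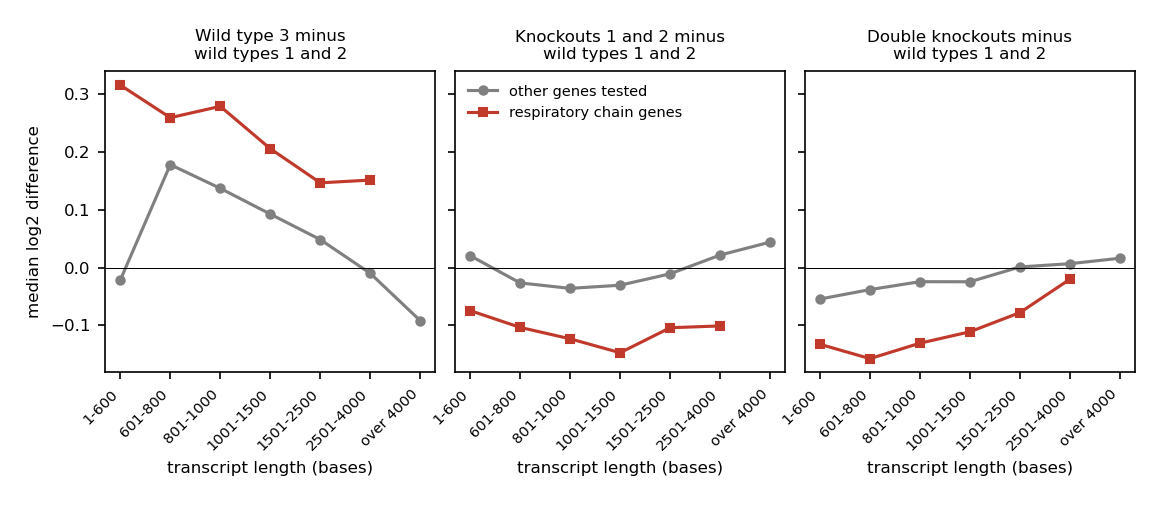
Median log2 difference (y axis) by transcript length (x axis) for respiratory chain genes (red) and all other genes tested (grey), for wild type 3 (left), knockouts 1 and 2 (middle) and double knockouts (right), each against wild types 1 and 2. Members lie above the other genes at every length in wild type 3 (0.15 to 0.31) and below them in both mutants (-0.15 to -0.07 in the middle, -0.16 to -0.02 at the right).

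The medians of subunits encoded in mitochondrial DNA lay near 0 in both mutants. The table lists 8 of them, of which 7 were tested. None was called in any comparison, and their medians were -0.03 in knockout and 0.00 in double knockout. By library the medians were 0.06, 0.01 and -0.11 in knockout and 0.01, 0.16 and -0.08 in double knockout. This spread was about as wide as the shift of the members, so the group medians cannot show that a shift is absent. mt-Co1, the catalytic subunit of complex IV, was at 946676 to 999221 in wild type, 854790 to 1033092 in knockout and 911851 to 1036074 in double knockout. The other mitochondrial protein genes were not analysed here. mt-Nd6, chosen after its values were seen, was at 125594, 125086 and 103565 in the third mouse of each group and at 181410 to 200854 in the other 6.

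Related pathways lay between these subunits and the members in knockout when all 9 libraries were used. Of 38 tested assembly factors outside the symbol rule, 0 were called, with medians of -0.10 in knockout and -0.04 in double knockout, and their most counted member Lrpprc, which stabilizes mitochondrial mRNAs, had differences of -0.06 and 0.01. Of 18 genes of the tricarboxylic acid cycle, 0 were called, with medians of -0.12 and -0.10. In that list, 11 had all knockouts below all wild types, where 12.8% of all genes did so. At an unadjusted p below 0.05 in the limma fit, 4 were lower in knockout, against 8.67% of all genes. Wild type 3 was the highest library in 12 of the 18. Knockouts 1 and 2 against wild types 1 and 2 gave a median of -0.06 in this list. Of 15 genes for coenzyme Q and cytochrome c and 10 for carriers and porins, 0 were called, with knockout medians of -0.11 and -0.14. For knockouts 1 and 2 against wild types 1 and 2 these lists gave -0.02 and -0.09, and the assembly factors -0.04. The members were at -0.10. Wild type 3 was the highest library in 4 of the 15, 5 of the 10 and 21 of the 38 assembly factors.

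The 19 regulators of mitochondrial biogenesis had medians of 0.00 in both mutants, and 0 were called. Ppargc1a, a coactivator that drives transcription of respiratory chain genes, was at 4934, 5152 and 4590 in wild type, 4092, 4610 and 5104 in knockout, and 5677, 5614 and 4670 in double knockout. The groups overlapped in both comparisons with wild type.

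Markers of several nephron cell types had lower values in knockout beside these genes. All 10 thick ascending limb markers had negative differences in knockout and 9 in double knockout, with medians of -0.78 and -0.41, and limma called 6 of them lower in knockout and 0 in double knockout. Umod, the segment's secreted uromodulin, was 163265 to 173515 in wild type, 69605 to 103552 in knockout and 96071 to 130734 in double knockout. Summed, these markers took 0.869 to 0.927% of the normalized counts in wild type, 0.435 to 0.521% in knockout and 0.544 to 0.708% in double knockout. Distal convoluted and connecting tubule markers had a knockout median of -0.52 with 2 of 8 called, and intercalated cell markers -0.36 with 1 of 8 called. Principal cell markers (7 tested, median -0.29) and podocyte markers (6 tested, median -0.22) all had negative differences in knockout, with 0 called. The median of each of these 2 lists was lower in all 3 knockouts than in any wild type. In bulk tissue, fewer cells of a type cannot be told apart from less of a marker RNA in each cell.

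The 16 proximal tubule markers had medians of 0.06 in knockout and 0.04 in double knockout. Slc5a12, a lactate transporter, was called higher (log2 1.04) and Miox, an oxygenase of inositol breakdown, lower (log2 -0.66) in knockout. The sum of the 16 markers was 4.38 to 4.80% of the normalized counts in wild type, 4.26 to 4.62% in knockout and 3.81 to 4.44% in double knockout. Kap, the most counted marker, makes up a large part of this sum. It averaged 1025101 normalized counts in wild type, 957698 in knockout and 774642 in double knockout. All 9 proliferating cell markers were called higher in knockout (median 2.62), and 5 of 9 were called lower in double knockout than in knockout. The part of segment composition and of proliferating cells in the values of the respiratory chain genes was not tested. Macrophage and fibroblast markers had knockout medians of 0.63 and 0.60, with 0 of 8 called in each, and they were higher in knockouts 1 and 2 (0.57 to 0.96 above the wild-type mean) than in knockout 3 (0.10 and 0.19). The member medians in knockouts 1, 2 and 3 were -0.17, -0.17 and -0.25, and a relation to these cell types was not tested.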

How the data were processed

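RNA of 9 mouse kidneys was measured, and libraries were grouped by their titles. The authors deposited one gene table of normalized counts (a signal scaled across libraries); the submitters' processing notes name STAR 2.5.0, HTSeq 0.6.1 and DESeq2. Build, annotation and strand setting: not given in the sources used here. The design text calls the replicates biological; where related mice share a prefix, the p-values would be too small.

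One limma model (limma 3.58.1, R 4.3.3) was fitted to log2(normalized count + 1) in all 9 libraries, with one mean per group and an intensity trend, for the 15740 genes whose mean was 10 or more. Tests were two-sided and adjusted by Benjamini-Hochberg across all genes, with calls below 0.05. This scale understates changes of low genes. Members and lists were chosen with earlier results of these data known. The genes named are the called members, the extremes and the most counted member per complex, all Sdh genes, isoform sets, and called or most counted list genes; others are said to have been chosen after their values were seen.

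Each library divided by the value of 1 read gave whole numbers throughout (100%, tolerance 0.05). In 2 libraries that value is near 1, so the planned count tests (edgeR 4.0.16, DESeq2 1.42.0) used 7 libraries with 37056843 to 47314829 reads each. An edgeR test of all 9 and fits corrected for transcript length (a lowess curve per library) were added after seeing the data. Other alternatives were pseudocounts, filters, scalings, weights, a replicate block and left-out libraries. Lengths and copies came from GENCODE M21 and promoter windows from RefSeq (GRCm38.p6), by symbol. The fits were also run on simulated counts with larger changes than those of most members. The simulation held no deviating library, no trend with transcript length and no small shift of many genes. It therefore does not test how the fits handle these.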

Additional observations from a re-analysis of the deposited data

How the results depend on the processing

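The median of the members stayed negative against wild type in every alternative: from -0.26 to -0.10 in knockout and from -0.27 to -0.10 in double knockout, the largest moves being -0.10 without wild type 3 and knockout 3 together (knockout) and -0.10 with the length correction and without wild type 3 (double knockout). Leaving out 1 library gave -0.26 to -0.14 in knockout, -0.27 to -0.12 in double knockout and -0.05 to 0.04 between the mutants. The number of members called in knockout was 0 with no filter, no intensity trend, only the 2 groups, 7 libraries (limma, edgeR and DESeq2), without wild type 3 and knockout 3 together, and both length corrections, 0 to 1 when 1 library was left out, and 10 with array quality weights, where 3222 genes were called in all. In double knockout against wild type it was 2 with quantile normalization, 3 with array quality weights and 3 with DESeq2 (Cox6b1 and Ndufb8 in each, Ndufc2 in the last 2). With the replicate block it was 0 in all 3 comparisons, with 29 members lower at an unadjusted p below 0.05 in knockout. Replicate numbers were not taken to pair the mice: deviations of same-numbered mice correlated between -0.14 and 0.21, over 0.1 in 2 of 9 pairs. Median-ratio scaling changes nothing, since the deposited values already have such factors at 1. Genes called overall ranged from 11 to 3222 in knockout, 10 to 295 in double knockout against wild type and 8 to 614 between the mutants. With 3 mice a group, differences of the size seen in most members (0.1 to 0.3 on the log2 scale) were smaller than any called among members in the main fit. The called member Ndufa5 was at -0.38 in knockout, and Cox6b1 at -0.36 was uncalled.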
